A study of Rattus norvegicus with 9 samples.

Results

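Cytosolic ribosomal proteins are the protein subunits of the ribosomes that translate nuclear-encoded messages, and their genes are among the most strongly transcribed in animal cells. Each ribosome carries 1 copy of most of them, so the genes of the large subunit (Rpl) and of the small subunit (Rps) are usually transcribed in step. Their messages typically begin with a pyrimidine tract, the 5′ terminal oligopyrimidine motif, through which growth signals acting on the kinase mTOR set how well they are translated. The array measured the amount of message and not its translation.

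The genes were taken by symbol. All probe sets were included whose only annotated gene was Rpl or Rps followed by a digit, Rplp0, Rplp1, Rplp2 or Rpsa, and the kinase genes that start with Rps6k were left out. The rule found 57 of 31099 probe sets, which named 50 of 14218 genes, 34 of the large and 16 of the small subunit. Of these genes, 42 encode the ribosomal proteins proper and 8 are paralogs or pseudogenes by symbol: Rpl3l, Rpl7l1, Rpl26l1, Rpl39l1, Rps27l, Rps4y2, Rpl37-ps2 and Rps4x-ps1. Rplp1 and Rplp2, the other acidic stalk proteins, had no probe set of their own in the table. Another 36 probe sets listed several genes, at least 1 of them a ribosomal protein, and these were counted but not named.

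The cells were from the zona glomerulosa of the rat adrenal gland, the outer layer of the cortex that secretes aldosterone. They were freshly dispersed by enzymatic and mechanical means and kept for 2 h at 37 °C, all in the same medium with serum albumin. Control tubes had no further addition, other tubes received the peptide hormone angiotensin II (Ang II, 100 nM), and others potassium at 16 mM. Each of 3 independent cell preparations gave 1 tube of each kind, so every group held 3 arrays (Affymetrix Rat Genome 230 2.0) and the series 9. The labels give no strain, sex or age of the rats.

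The deposited values are 1 linear signal per probe set and array. Of 13 genes listed for the zona glomerulosa, 12 were named and tested. Their summed signal was 109446 to 118200 in control tubes, 113571 to 117285 after Ang II and 114689 to 123717 after potassium. The list includes Star, Cyp11a1, Hsd3b1 and Cyp21a1, which other steroid-making cells of the cortex also express. Its sum therefore does not tell the zones apart. Aldosterone synthase (Cyp11b2) was not named alone by a probe set, so this defining marker was not analysed here. Of 10 medullary markers, 9 were named, with summed signals of 2874 to 4126 over the 9 arrays. The 8 tested had no gene called in any comparison. Summed signals were 29774 to 34651 for zona fasciculata, 24343 to 30881 for endothelium and 16244 to 21158 for red blood cells. Capsule fibroblasts had 15421 to 20442, macrophages 7662 to 12146.5, and smooth muscle 6551 to 9933. Lymphocytes had 906 to 1808 and adipocytes 354 to 602. Lists differ in their genes, so these sums do not give shares of cells. Of the genes listed for the zona glomerulosa, Star was higher after both stimuli, and Wnt4 was lower after Ang II than in control and than after potassium. After Ang II 1 of 6 smooth muscle markers was called. None was called of the tested markers of zona fasciculata (2 of 3 tested), endothelium (6 of 8), macrophages (7 of 8), capsule fibroblasts (8 of 8), lymphocytes (4 of 10), red blood cells (3 of 6) and adipocytes (1 of 6), and the others were dim or not named alone. The control array of preparation 2 stood apart in its dim values, with a median over all probe sets of 173 against 128 to 144 on the other 8 arrays. In bulk samples such as these, fewer cells of a type and less RNA per cell cannot be told apart.

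Sequence around the start of transcription is shown because the pyrimidine tract that defines these messages lies there. RefSeq's promoter table (rat build GRCr8) held 41 of the 50 genes, and Rpl7, Rpl23a, Rpl27, Rpl30, Rpl37a, Rps9, Rps29, Rpl37-ps2 and Rps4x-ps1 were not matched. Each line gives the 40 bases before the annotated start and the first 20 transcribed bases, 5′ to 3′ on the gene's strand, with every run of at least 8 bases that are each C or T in capitals. The first 5 genes have such a run, and the last 4 have none.
Rpl7a, chr3:30637096-30637155, plus strand: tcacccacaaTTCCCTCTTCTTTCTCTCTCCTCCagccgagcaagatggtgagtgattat
Rps24, chr16:96477-96536, plus strand: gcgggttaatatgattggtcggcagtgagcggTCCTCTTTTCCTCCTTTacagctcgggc
Rpl14, chr8:129163580-129163639, plus strand: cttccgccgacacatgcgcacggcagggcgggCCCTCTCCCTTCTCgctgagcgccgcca
Rps6, chr5:106420521-106420580, minus strand: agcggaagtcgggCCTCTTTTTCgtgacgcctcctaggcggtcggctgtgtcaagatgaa
Rplp0, chr12:46718371-46718430, minus strand: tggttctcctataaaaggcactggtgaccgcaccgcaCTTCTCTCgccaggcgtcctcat
Rpl3, chr7:113507971-113508030, minus strand: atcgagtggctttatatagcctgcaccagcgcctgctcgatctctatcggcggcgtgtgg
Rpl18, chr1:105325230-105325289, plus strand: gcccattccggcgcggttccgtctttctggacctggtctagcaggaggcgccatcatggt
Rpl7l1, chr9:21695678-21695737, plus strand: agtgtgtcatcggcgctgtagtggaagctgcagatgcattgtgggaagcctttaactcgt
Rps27l, chr8:76443618-76443677, plus strand: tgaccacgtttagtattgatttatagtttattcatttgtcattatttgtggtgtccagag

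A run of this kind was present in 26 of the 35 matched genes of ribosomal proteins proper (74.3%) and in 3 of the 6 matched paralogs, against 23.9% of all 33469 promoters in the table. A run was counted anywhere in the window, and those of Rpl7a and Rps6 lie wholly before the annotated start. These shares are therefore not shares of messages that begin with the tract. The run of Rpl7a was the longest of those printed, with 24 bases, and that of Rplp0, 8 bases, just reached the minimum. In the windows of Rpl3 and Rpl18 the longest runs were 5 and 7 bases. The windows and these counts rest on the starts annotated in RefSeq, and whether these cells use the same starts was not tested. Absence of a run says only that these letters are not in the window at the annotated start.

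Short motifs were searched in the whole 300 bases of each promoter, on both strands. CTTCCG, the core that ETS factors such as GABP recognise, was in 17 of the 35 promoters (48.6%) against 16.6% of all promoters. AAGATGG, a core of the YY1 motif, was in 8 (22.9%) against 7.01%, and the GC box GGGCGG in 23 (65.7%) against 33.1%. CTTTCC, whose letters are all pyrimidines and so can lie inside a run, was in 16 (45.7%) against 26.4%. The TATA motif TATAAA was in 4 (11.4%) against 14.2%. These matches describe the letters only, since no binding was measured.

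Most ribosomal protein messages gave very high signals. Of the 50 genes, 38 (26 of the large and 12 of the small subunit) had a mean signal over the 9 arrays above 10000, a limit set after the data had been seen, and these are called the bright genes below. Their means ran from 12964 to 31132, and the next probe set of the family lay at 4200. Only 325 of all probe sets exceeded 10000, and 39 of those belonged to the family. The highest signal on an array was between 33568 and 42803. Together the 38 genes made up 3.44% to 3.79% of the summed signal of an array. Since a signal depends on a probe set's own sequence, levels are compared between tubes and not between genes.

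Single bright genes are shown with their 9 values. Rps29, a protein of the small subunit head, read 31065, 28753 and 32244 in the control tubes of preparations 1 to 3, 30357, 31933 and 32589 after Ang II, and 28383, 31996 and 32868 after potassium. Rpl7a, a large subunit protein, read 27571, 25564 and 31697 in control tubes, 27279.5, 29840.4 and 27507 after Ang II, and 25332, 29004 and 29274 after potassium. The groups overlapped for both genes, and for Rpl7a the highest tube was the control of preparation 3 and the lowest the potassium tube of preparation 1. Rplp0, the stalk protein often used as a reference message, read 18269, 16886 and 19570.1 in control tubes, 18657, 17879 and 17807 after Ang II, and 19335, 18877 and 18477 after potassium. Its log2 fold change was -0.01 (95% interval -0.14 to 0.12) for Ang II and 0.05 (-0.08 to 0.18) for potassium.

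The probe sets were tested with limma on log2(signal + 16), with the preparation as a block, and adjusted by Benjamini-Hochberg over the 18625 probe sets that passed a filter on dim values. Of the 57 family members 52 passed, standing for 45 genes. The probe sets of Rpl30, Rpl3l, Rpl39l1, Rpl37-ps2 and Rps4x-ps1 did not, and their signals stayed at or below 110 on all 9 arrays. Rpl3l, whose product replaces Rpl3 in muscle, and Rpl39l1 had mean control signals of 44.6 and 29.1. Rpl37-ps2 and Rps4x-ps1, pseudogenes by symbol, had 68.3 and 21.1. The probe set named for Rpl30, a large subunit protein proper, was at 82.6 in control tubes.

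The comparison of Ang II with control asked whether the hormone changed these messages within 2 h. It found 1 of 52 family probe sets past an adjusted p of 0.05, a dim second probe set of Rpl3, and none of the 38 bright genes. Over all tested probe sets 2.20% were called (409, of which 310 or 1.66% were higher and 99 or 0.532% lower), so the family's share of 1.92% is near the background and is not a result about the family. At an unadjusted p under 0.05 the family had 5 probe sets, 2 higher and 3 lower, against 14.5% of all tested (7.22% higher and 7.24% lower). The median log2 fold change over the 45 genes was -0.01, and over all tested probe sets -0.03.

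The bright genes were measured closely enough to set narrow bounds after Ang II under the deposited scaling. Their 38 log2 fold changes lay between -0.15 and 0.10, with 18 above and 20 below 0, and the widest limits of their 95% intervals were -0.29 and 0.23. These limits correspond to 1.22-fold lower and 1.18-fold higher. They depend on the scaling: with arrays scaled to the median of all probe sets, the 38 values lay between -0.03 and 0.22. The large subunit genes (median -0.01, n = 26) and the small subunit genes (median -0.01, n = 12) had similar medians. The SD within a group had a median of 0.08 on the log2 scale for the bright genes, 0.09 for the 286 other probe sets above 10000 and 0.21 for all tested. Of those 286 probe sets 20 were called after Ang II, all of them higher, so calls were made above 10000. Where above 10000 these 20 lay was not examined. Whether the array responds less to changes at the highest signals, which would make the limits above too narrow, was not tested.

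**Figure D1:**
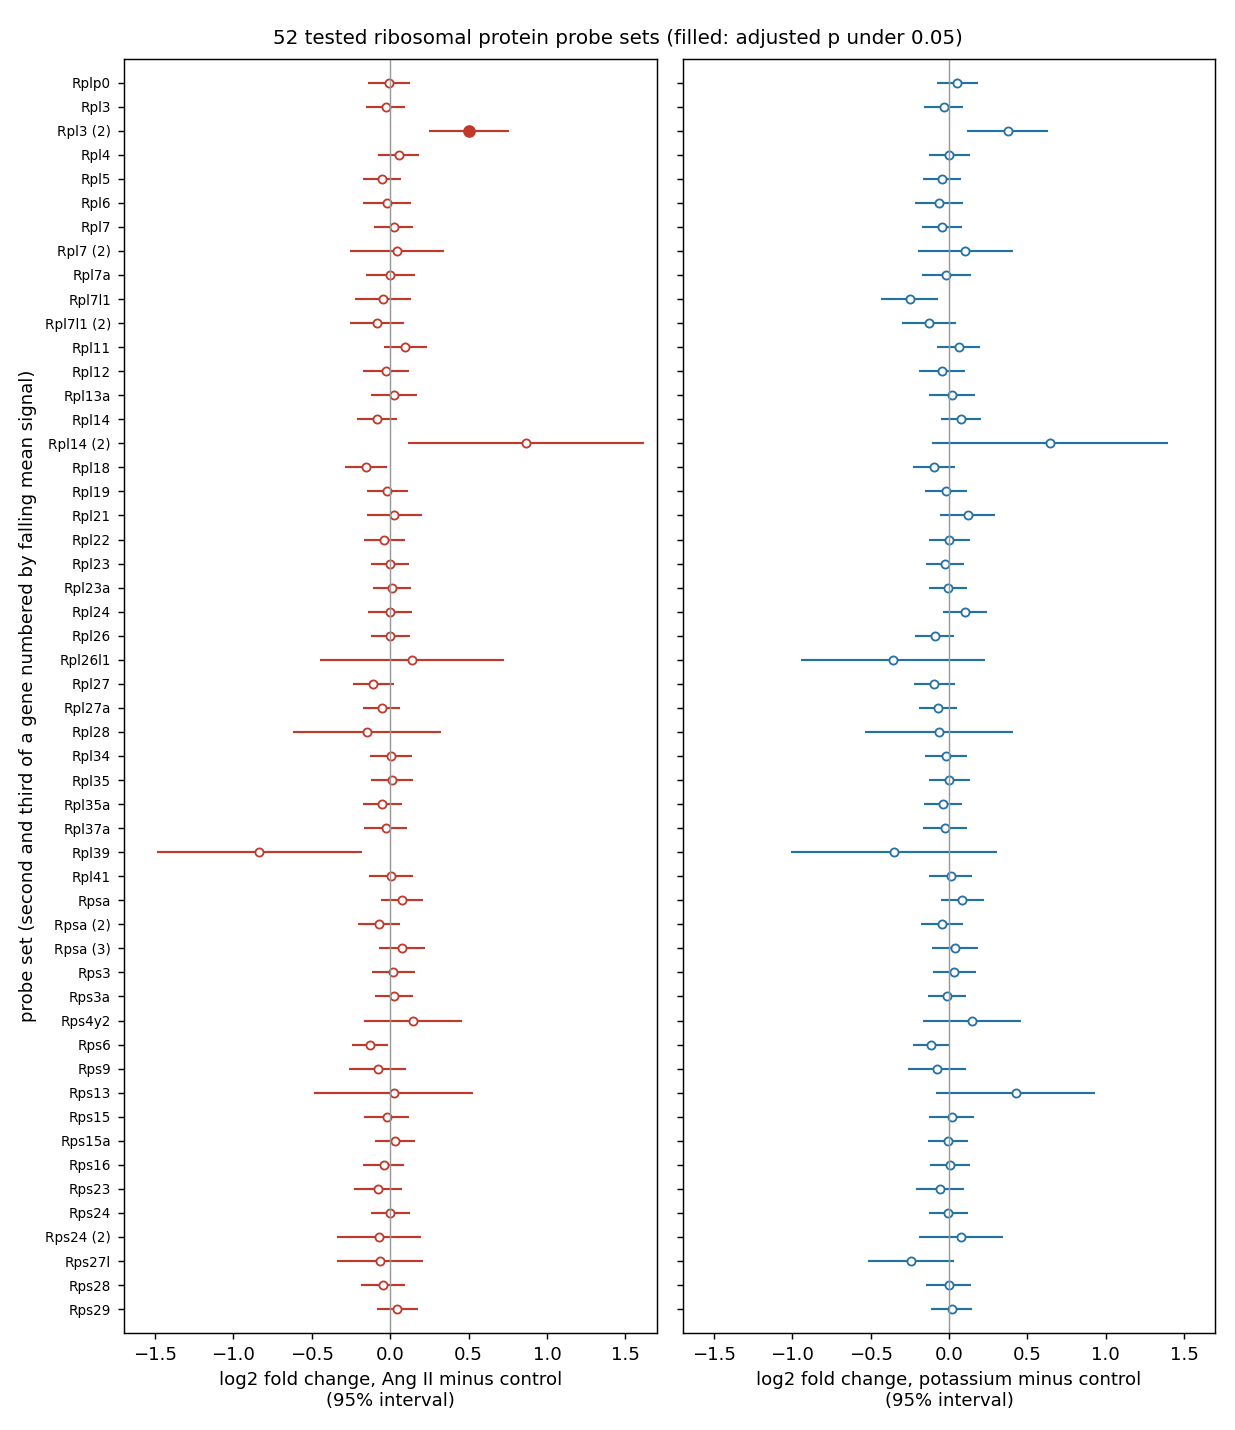
Log2 fold change with its 95% interval for each of the 52 tested ribosomal protein probe sets, Ang II minus control (left) and potassium minus control (right), with further probe sets of a gene numbered by falling mean signal. The single filled point, Rpl3 (2), is the only one with an adjusted p under 0.05 (log2 fold change 0.50 after Ang II), and the bright genes lie between -0.15 and 0.12 in both panels.

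Rpl3 encodes a large subunit protein close to the peptidyl transferase centre, and its 2 probe sets differed. The dim one (1396049_x_at, whose suffix marks probes that can match other sequences) read 1068, 843 and 735 in control tubes, 1181, 1507 and 1075 after Ang II, and 1393, 1170.3 and 893 after potassium. All 3 Ang II values lay above all 3 control values, as for 7.30% of all tested probe sets and no other of the family, while the potassium values overlapped with the controls. It rose 1.42-fold after Ang II, by 0.50 ± 0.12 on the log2 scale (SE; adjusted p = 0.041 in limma, higher in 3 of 3 preparations). After potassium the difference was 0.37 ± 0.12 (adjusted p = 0.090) and did not pass.

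The bright probe set of Rpl3 (1371300_at) read 27574, 27029.7 and 28779 in control tubes, 27055, 27931 and 26727 after Ang II, and 25495, 28234 and 27784 after potassium. Its groups overlapped, with a log2 fold change of -0.03 after Ang II (95% interval -0.15 to 0.09) and -0.03 after potassium (-0.16 to 0.09). The call on the dim probe set was lost under 12 of 20 other settings, with adjusted p-values from 0.0078 to 0.29. It was lost when preparation 2 was left out (0.34, adjusted p = 0.29) or preparation 3 (0.48, adjusted p = 0.18). Leaving out any 1 control array, or the Ang II array of preparation 2 or 3, also ended it (adjusted p between 0.053 and 0.26), and with no block for the preparation it was 0.29.

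Without overlap below the controls after Ang II lay 4 of the 52 family probe sets, against 7.75% of all tested, and none of the 4 passed the test. They were Rps6, Rpl18, Rpl27a and 1 probe set of Rpl7l1. Rps6, the small subunit protein that S6 kinases phosphorylate, read 23415, 24726 and 25481 in control tubes, 21859.5, 22635 and 22814 after Ang II, and 21748, 22961 and 23337 after potassium. Every treated tube was below every control tube. The differences were -0.13 ± 0.05 for Ang II (adjusted p = 0.28) and -0.11 ± 0.05 for potassium (adjusted p = 0.27), both in limma. With arrays scaled to the median of all probe sets they were -0.01 and 0.01.

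Rpl18, a large subunit protein, read 18699.9, 18079 and 21728 in control tubes, 17454, 17338 and 17637 after Ang II, and 17353, 18333 and 18875 after potassium. All Ang II values were below all controls, and the control tube of preparation 3 was the highest of the 9. The difference was -0.15 ± 0.06 for Ang II (adjusted p = 0.26 in limma). It passed only with quantile normalization between arrays (-0.18, adjusted p = 0.048). Without preparation 3 it was -0.08, and without the control array of preparation 3 it was -0.09. Rpl27 differed by -0.11 ± 0.06 with overlapping groups. On the other side Rpl11, which with Rpl5 can bind Mdm2, had the highest difference among the bright genes, 0.10 ± 0.06 (adjusted p = 0.53).

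The comparison of potassium with control called none of the 52 family probe sets in limma, against 5.36% of all tested (998, of which 518 or 2.78% were higher and 480 or 2.58% lower). At an unadjusted p under 0.05 there were 2, the dim Rpl3 probe set (higher) and Rpl7l1 (lower), against 18.8% of all tested (8.77% higher and 10% lower). The 38 bright genes had log2 fold changes between -0.11 and 0.12, 15 above and 23 below 0. Under the deposited scaling their 95% intervals lay within -0.26 and 0.29. Of the 286 other probe sets above 10000, 22 were called, 17 higher and 5 lower. Rpl26, a large subunit protein, differed by -0.09 ± 0.06 and Rpl24, of the same subunit, by 0.10 ± 0.07 (adjusted p = 0.42 and 0.44 in limma). The median over the 45 genes was -0.02, as over all tested probe sets (-0.02).

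No family probe set lay without overlap above the controls after potassium, against 7.84% of all tested, and 4 lay below, against 9.78%. Those 4 were Rps6, both probe sets of Rpl7l1 and Rps27l. Rpl7l1 is a paralog of Rpl7 found in ribosome precursors. Its brighter probe set (1372391_at) read 1834, 1639 and 1705 in control tubes, 1656, 1702 and 1658 after Ang II, and 1413, 1362 and 1568 after potassium. Potassium tubes were the lowest in all 3 preparations. The difference from control was -0.25 ± 0.08 (adjusted p = 0.10 in limma) and that of Ang II from potassium 0.21 ± 0.08 (adjusted p = 0.22).

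The other Rpl7l1 probe set (1389013_at) read 1587, 1527 and 1525 in control tubes, 1440.0, 1434 and 1504 after Ang II, and 1411, 1447 and 1378 after potassium. Both treated groups lay below all controls, by -0.08 ± 0.08 for Ang II and -0.13 ± 0.08 for potassium (adjusted p = 0.70 and 0.42 in limma). Rps27l, a paralog of Rps27 and a known p53 target, read 475, 446 and 513 in control tubes, 424, 498 and 447 after Ang II, and 419, 385 and 399 after potassium. Its potassium values were below the other 6, with a difference from control of -0.24 ± 0.13 (adjusted p = 0.33). Rpl7l1 and Rps27l, 2 of the 4 tested paralogs, had all potassium values below all controls, as 9.78% of all tested probe sets did. Neither passed the test, and this is not a result about paralogs.

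The other tested paralogs did not separate the groups. Rpl26l1, a paralog of Rpl26, read 121, 177 and 113 in control tubes, 149.9, 127 and 175 after Ang II, and 64.5, 136 and 115 after potassium. Rps4y2, a paralog of Rps4x, read 294, 304 and 394 in control tubes, 403, 321 and 373 after Ang II, and 343, 365 and 388 after potassium. Every group overlapped with the others for these genes, and the smallest adjusted p was 0.41.

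**Figure D2:**
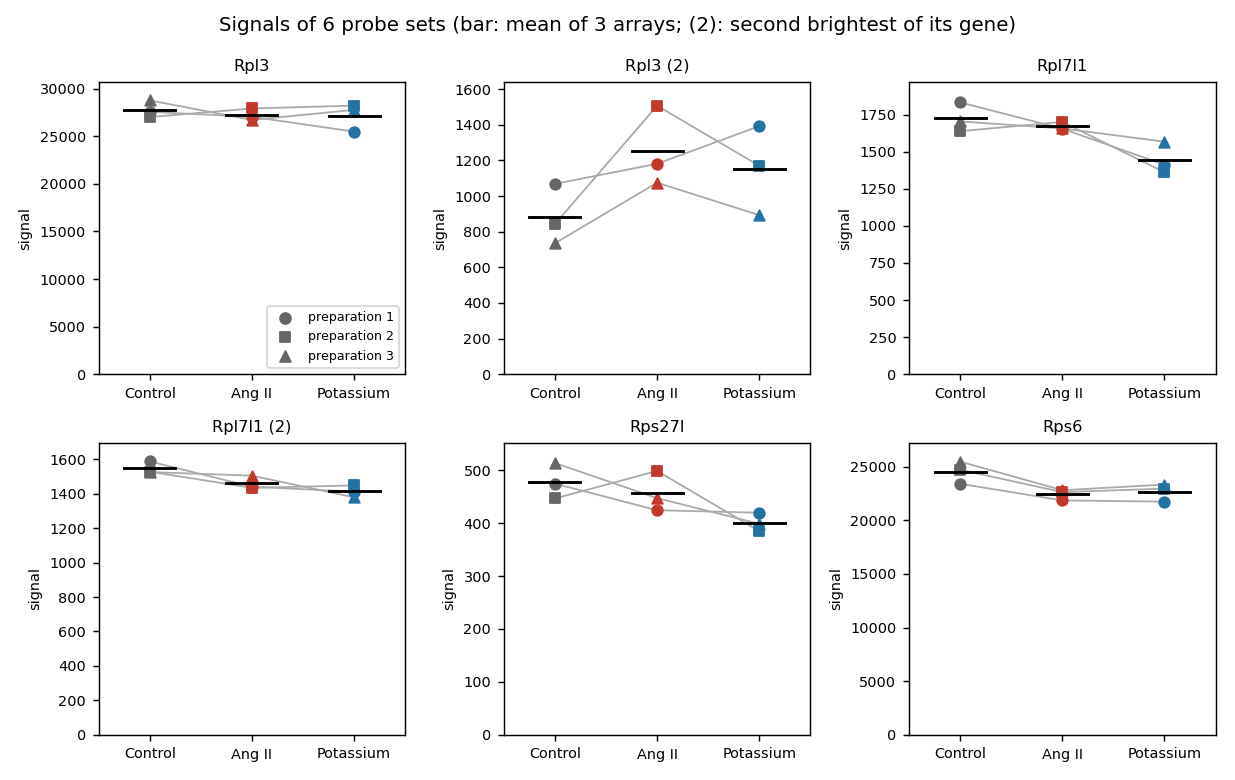
Signals of 6 probe sets in each tube, with symbols for the preparation, thin lines joining tubes of 1 preparation and a bar at each group mean (n = 3); every axis starts at 0. The dim Rpl3 probe set is higher in all Ang II tubes (1075 to 1507) than in the controls (735 to 1068), the bright Rpl3 probe set lies between 25495 and 28779 in all 9 tubes, and both Rpl7l1 probe sets, Rps27l and Rps6 are lower in every potassium tube than in any control.

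Setting Ang II against potassium directly called none of the 52 family probe sets in limma, against 4.79% of all tested (892, of which 576 or 3.09% were higher after Ang II and 316 or 1.7% lower). At an unadjusted p under 0.05 there were 2, Rpl7l1 (higher after Ang II) and Rpl14 (lower), against 16.2% of all tested (8.51% higher and 7.69% lower). Without overlap, 2 probe sets were higher after Ang II than after potassium, Rpl7l1 and Rps27l (9.72% of all tested), and 2 lower, Rpl14 and Rps13 (9.06%). The bright genes differed by -0.16 to 0.09, with 95% intervals within -0.29 and 0.22. Rpl14, a large subunit protein, read 13104, 12449 and 13364 in control tubes, 11936, 12516 and 12223 after Ang II, and 12875, 13996 and 14210.3 after potassium. Ang II tubes were below potassium tubes in all 3 preparations, by -0.16 ± 0.06 (adjusted p = 0.17). Both comparisons with control share their control arrays, and Ang II against potassium shares arrays with each of them.

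Probe sets of 1 gene gave like values for some genes and unlike ones for others. The dim probe set of Rpl14 (1375375_at) read 71.8, 122 and 18.6 in control tubes, 120, 149 and 98.1 after Ang II, and 121, 98.3 and 86.0 after potassium. Its difference after Ang II, 0.87 ± 0.35 (adjusted p = 0.26), had the opposite sign to that of the bright one, -0.09 ± 0.06. The lowest of these values is 1 control tube, and with single arrays or preparations left out the difference ranged from 0.43 to 1.25. The 3 probe sets of Rpsa, the laminin receptor that also serves as a small subunit protein, differed by 0.07, -0.07 and 0.07 after Ang II, each with a standard error of 0.06 or 0.07. The first of these 3 values is that of the brightest and the last that of the dimmest probe set. For Rpl7 the differences were 0.02 and 0.04 after Ang II and -0.05 and 0.10 after potassium, and for Rps24 0.00 and -0.07 after Ang II and -0.00 and 0.08 after potassium, the second value of each pair being that of the dim probe set. None of these passed the test.

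Rpl39, a small protein near the exit tunnel, had 2 tubes far above the rest. Its probe set read 154, 833 and 176 in control tubes, 154, 169 and 139 after Ang II, and 146, 414 and 176 after potassium. The high values were the control and the potassium tube of preparation 2, and the other 7 lay between 139 and 176. The difference of Ang II from control was -0.84 ± 0.31 (adjusted p = 0.21 in limma). In preparations 1 to 3 it was -0.0016, -2.20 and -0.31. With single arrays or preparations left out the fitted difference ran from -1.25 to -0.15. Rps13 and Rpl28, further proteins proper with dim probe sets, read 98.8 to 189 and 140.1 to 237 over the 9 tubes. The potassium values of Rps13 (159, 189 and 189) were all above the Ang II values (143, 114 and 137), with a difference of -0.41 ± 0.24 for Ang II against potassium (adjusted p = 0.45).

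The bright genes shifted as a block from tube to tube, and the sign of the shift was not the same in the 3 preparations. In preparation 1 the Ang II tube had 10 of the 38 genes above its control (median log2 difference -0.03), in preparation 2 it had 34 (0.12), and in preparation 3 it had 5 (-0.13). For potassium the counts were 7, 33 and 10, with medians of -0.06, 0.07 and -0.06. In preparation 2 the 286 other probe sets above 10000 shifted by similar amounts, and in preparations 1 and 3 in the same direction but less. Their medians were -0.01, 0.13 and -0.06 for Ang II and -0.01, 0.08 and -0.02 for potassium. These 286 include genes of the translation machinery outside the naming rule, such as Rack1 and Eef1a1. Probe sets that list several genes, a ribosomal protein among them, were not excluded from the 286 either. The median of the 38 genes, relative to each gene's mean over the 9 arrays, was 0.09 in the control tube of preparation 3. It was -0.05 both in the control tube of preparation 2, which stood apart in its dim values, and in the potassium tube of preparation 1. The part of these tubes in the differences between preparations was not tested.

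**Figure D3:**
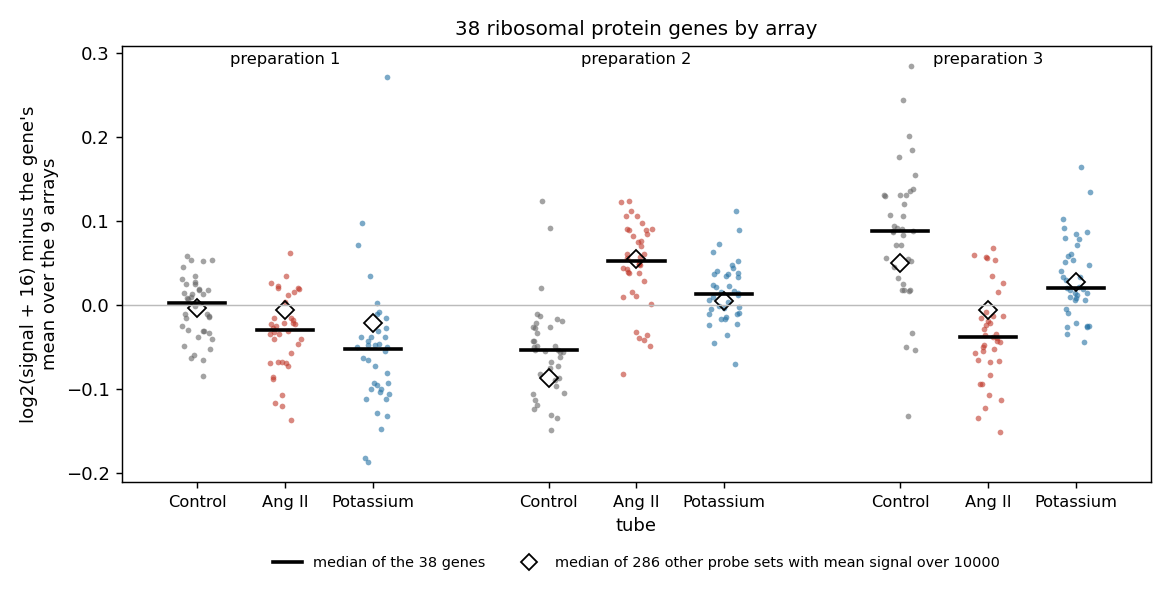
Each point is 1 of the 38 bright ribosomal protein genes in 1 tube, as log2(signal + 16) minus that gene's mean over the 9 arrays; bars are the medians of the 38 genes and diamonds the medians of 286 other probe sets above 10000. The control medians run from -0.05 in preparation 2 to 0.09 in preparation 3, with the diamonds moving the same way, and the treated tubes lie between -0.05 and 0.05.

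A test of differences between the 3 preparations, added after the data had been seen, called 1 of the 52 family probe sets in limma, Rpl39 (adjusted p = 0.042), against 3.45% of all tested. At an unadjusted p under 0.05 it had 3, against 19.6%. Scaling each array to the median of all probe sets moved every family value against control up. In each preparation the control array had the highest such median, by the widest margin in preparation 2 (173 against 144 and 141). The median over the 45 genes became 0.12 after Ang II and 0.10 after potassium, while the median of all tested probe sets moved from -0.03 to 0.09 and from -0.02 to 0.10. Both medians moved by similar amounts. The 38 bright genes then lay between -0.03 and 0.22 after Ang II and between 0.01 and 0.24 after potassium, and none was called. With this scaling the split of all calls became 431 higher and 33 lower after Ang II, and 722 and 177 after potassium. Scaled to the median of the tested probe sets, it was 616 and 351 after potassium.

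Genes that share the pyrimidine tract or the ribosome were looked up next. Of 16 translation factors of the same message class, 11 were tested and none was called in any of the 3 comparisons, nor did any pass an unadjusted p of 0.05. Eef1a1, the elongation factor that brings transfer RNA to the ribosome, differed by 0.03 ± 0.06 after Ang II and 0.00 ± 0.06 after potassium. Rack1, a ribosomal scaffold protein outside the naming rule, differed by -0.03 ± 0.06 and 0.05 ± 0.06. All 36 probe sets that list several genes, a ribosomal protein among them, were tested and none was called in limma.

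Mitochondrial ribosomal proteins, which build the separate ribosome of that organelle, had 73 tested genes. After Ang II 1 was lower, Mrpl14 (-0.59 ± 0.13, adjusted p = 0.026 in limma), which is 1.37% of the list against 0.532% of all tested probe sets called lower. After potassium 3 were lower, Mrps2 (-0.66 ± 0.10, adjusted p = 0.00061), Mrpl41 (-0.51 ± 0.09) and Mrps6 (-0.32 ± 0.08), which is 4.11% of the list against 2.58%. In Ang II against potassium Mrps2 and Mrpl41 were higher (2.74% against 3.09%). These shares are near the background and are not a result about the list. The median of the list was -0.07 after Ang II and -0.04 after potassium, against -0.03 and -0.02 over all tested probe sets.

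Ribosome biogenesis factors, the nucleolar proteins that process ribosomal RNA and assemble subunits, fell in part after potassium. Of 46 tested genes 8 were lower and none higher (17.4%, against 2.58% of all tested probe sets called lower), and 41 of 46 had a value below 0 (median -0.21). The list was chosen with earlier results of these data known, so its shares here and below are a description and not a test of the list. Rrs1, a large subunit assembly factor, read 977, 1107 and 1051 in control tubes, 1068, 1246 and 1038 after Ang II, and 671, 583 and 471 after potassium. All potassium tubes were far below the other 6, a fall by 0.86 on the log2 scale (SE 0.12, adjusted p = 0.00029 in limma). Wdr43, of the small subunit processome, changed by -0.72 ± 0.12 (adjusted p = 0.0014), and Nmd3, which takes large subunit precursors out of the nucleus, by -0.54 ± 0.10 (adjusted p = 0.0032).

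After Ang II none of the 46 biogenesis genes was called in limma, and at an unadjusted p under 0.05 there were 5 higher and 1 lower, against 7.22% and 7.24% of all tested probe sets. Ang II against potassium called 17 higher and none lower (37.0%, against 3.09% of all tested probe sets called higher), from 0.29 to 0.95 on the log2 scale. Nop58, a core protein of the box C/D small nucleolar particles, read 5320.4, 4959.7 and 6041 in control tubes, 6226, 7079 and 6512 after Ang II, and 3791, 4148 and 4426 after potassium. The 3 groups did not overlap. Nop58 was higher after Ang II than after potassium by 0.68 ± 0.08 (adjusted p = 6.7e-05) and lower after potassium than in control by -0.40 ± 0.08 (adjusted p = 0.0058). The counts on this list moved with the settings: after potassium 3 were lower without preparation 1, 4 without the potassium array of preparation 1, 3 with arrays scaled to the median of all probe sets and 1 without a trend in the variance. For Ang II against potassium there were 4 without preparation 1, 8 without preparation 2 or 3, and 7 to 11 with any 1 Ang II or potassium array left out.

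**Figure D4:**
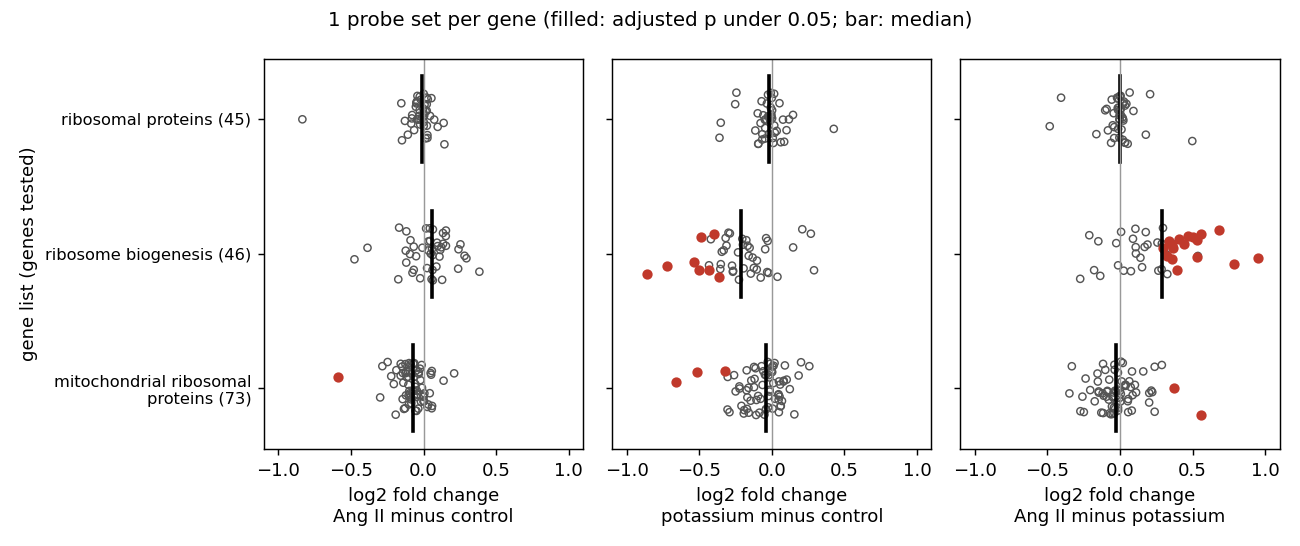
Log2 fold changes of single genes (1 probe set per gene) in 3 lists, with a bar at each median and filled points for an adjusted p under 0.05. Ribosomal proteins gather around 0 in all 3 panels with no filled point, while the biogenesis list has 8 filled points below 0 after potassium (median -0.21) and 17 above 0 for Ang II minus potassium (median 0.29).

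Of 24 tested subunits and factors of RNA polymerases I and III, which make ribosomal and transfer RNA, none was called against control in limma. At an unadjusted p under 0.05, 1 of the 24 was higher and 6 lower after Ang II, against 7.22% and 7.24% of all tested probe sets. After potassium 2 were higher and 4 lower, against 8.77% and 10%. The median of the list was -0.14 after Ang II, with 18 of 24 below 0, and -0.13 after potassium, with 16 below 0. Over all tested probe sets these medians were -0.03 and -0.02. Polr3d was higher in Ang II than in potassium tubes (0.36 ± 0.09, adjusted p = 0.037).

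Of 27 tested genes around mTOR and the translation of these messages, 3 were called after Ang II (2 higher and 1 lower) and 4 after potassium (1 higher and 3 lower). These are 11.1% and 14.8% of the list, against 2.20% and 5.36% of all tested probe sets, and the median of the list was 0.01 and -0.03. Eif4ebp1, which encodes the repressor of the cap-binding protein that mTOR inactivates, read 1621, 1657 and 1450.4 in control tubes, 1145, 1144 and 1105 after Ang II, and 717, 832 and 850.4 after potassium. The groups were fully separate, with falls by 0.47 after Ang II (adjusted p = 0.016 in limma) and by 0.97 after potassium (adjusted p = 1.5e-05). Eif4e, the cap-binding protein itself, was higher by 0.35 ± 0.06 after Ang II and 0.27 ± 0.06 after potassium. Myc, a transcription factor that drives ribosome production, was higher after Ang II (0.29 ± 0.07, adjusted p = 0.039). After potassium Sesn2, an mTOR inhibitor induced by stress, and Rictor, a subunit of mTOR complex 2, were lower by -0.31 ± 0.08 and -0.29 ± 0.08. Of 5 tested genes listed for the p53 answer to free ribosomal proteins, Cdkn1a (0.41 ± 0.08) and Gadd45a (0.43 ± 0.09) were higher after Ang II. After potassium Gadd45a (0.37 ± 0.09) was higher. These are 2 and 1 of 5 genes, against the same 2.20% and 5.36%. The mTOR and p53 lists were also chosen with earlier results of these data known, so their shares do not test the lists. Neither p53 activity nor free ribosomal protein was measured. Ang II tubes were higher than potassium tubes in Eif4ebp1 (0.50 ± 0.10), Sesn2 (0.47 ± 0.08) and Cdkn1a (0.38 ± 0.08).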

How the data were processed

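Total RNA from 9 tubes was labelled with biotin and hybridised to 1 array each, per the labels. The deposited values are linear intensity values, 1 per probe set and array; per the submitters' processing notes GCOS, the array maker's software, was used, and its background method is not given in the sources used here. Trimmed of 2% at either end, the deposited intensity values had a mean of 500.17 to 500.19 on every array, as after a common scaling. The 57 control probe sets were left out of the fit. Genes were named through the platform annotation, updated by Entrez identifier from RefSeq (GRCr8): 20826 probe sets had 1 symbol, 436 several and 9780 none. No other column held values of samples.

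Values were taken as log2(signal + 16), which understates changes of dim probe sets. Probe sets with a mean log2 value above the 40th percentile (18625) were fitted in limma (version 3.58.1, under R 4.3.3) by lmFit, contrasts.fit and eBayes with a trend, on the 3 groups and the preparation as a fixed block (4 residual degrees of freedom, 10.7 of the prior). Benjamini-Hochberg adjustment was made over all 18625, threshold 0.05. Errors are standard errors of the fit unless named otherwise. The fit was tested on simulated data. Where a gene has several probe sets, the one with the highest mean stands for it in medians and lists.

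Tubes were paired by preparation, as the series' design states. Deviations from the group means correlated at 0.09 to 0.27 in the 9 pairs of 1 preparation and at -0.21 to 0.05 in the 18 other pairs. The number of arrays limits the precision.

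The members and the 7 gene and 10 marker lists were chosen with earlier results of these data known. Named were all members past the threshold, the 4 with the smallest p in each direction and comparison, the 4 brightest and dimmest genes, paralogs, genes with discordant probe sets and up to 3 genes of each list and comparison. Wherever further genes are named, they were chosen after their values were seen. Alternatives changed the block, scaling, pseudocount, filter, variance trend, groups in the fit and arrays.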

Additional observations from a re-analysis of the deposited data

How the results depend on the processing

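Every alternative changed 1 choice. The count of ribosomal protein probe sets called after Ang II, 1 as reported, was 0 with no replicate block, with a random replicate block, without the filter on dim probe sets, without the trend of the variance and with only the 2 groups compared, and 2 with quantile normalization. With single arrays or preparations left out it ran from 0 to 1. After potassium it was 0 except for 1 with arrays scaled to the median of all probe sets (the dim Rpl3 probe set, 0.49, adjusted p = 0.045 in limma), and for Ang II against potassium it was 0 in all 20 alternatives. The median over genes moved most with that scaling, to 0.12 after Ang II and 0.10 after potassium. With single arrays or preparations left out it ran from -0.08 to 0.05 after Ang II and from -0.06 to 0.02 after potassium. It kept its sign in 16 of 21 alternatives after Ang II and in 15 of 21 after potassium. No value that passed the test changed sign, and sign changes of values near 0 that passed in neither setting were not counted as reversals.

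Of the biogenesis list, examined under these settings after the data had been seen, 1 gene was called after Ang II with arrays scaled to the median of the tested probe sets. After potassium the count of 8 became 3 with arrays scaled to the median of all probe sets and 1 without the trend, and ran from 3 to 8 with arrays left out. For Ang II against potassium the count of 17 became 7 with no replicate block, 8 with arrays scaled to the median of all probe sets and 1 without the trend, and ran from 4 to 11 with arrays left out. The list's median stayed between -0.28 and -0.10 after potassium and between 0.23 and 0.30 for Ang II against potassium.

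Over all tested probe sets, 409, 998 and 892 calls became 197, 506 and 442 with no replicate block and 38, 258 and 156 without the trend. With arrays scaled to the median of all probe sets the third was 556. With arrays left out they ran from 143 to 277, 432 to 723 and 275 to 607; fewer arrays leave fewer residual degrees of freedom. Other causes were not tested, and the other gene lists were not recomputed. Dim probe sets, such as those of Rpl39 and Rpl14, limit precision most, with standard errors of 0.31 and 0.35.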

Other observations

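Outside the family, the 6 genes whose log2 values over the 9 arrays followed the mean of the ribosomal protein genes most closely, among 10353 genes compared, were Srsf4 (Pearson's r 0.97), Coro1c (0.96), Plek (0.95), Wfdc6a (0.94), Zdhhc9 (0.93) and Ecscr (0.93). These values are a description without a test, since the arrays share 3 preparations and the genes were picked as the closest of many. Against the mean of the 38 bright genes alone, r was between 0.61 and 0.79 for the same 6 genes.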
